A study of Mus musculus with 12 samples.

Results

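Serpins are serine protease inhibitors and their relatives, a family of proteins numbered by lettered clades from a to i. The genes described here were all those whose symbol starts with Serpin, a clade letter from a to i and a digit, among probe sets annotated with 1 gene symbol. The rule used names and no measured value. It gave 54 genes of the 22154 measured, 20 of clade a, 25 of clade b, 2 each of clades f and i, and 1 each of clades c, d, e, g and h. The brightest probe set by mean over all arrays stood for a gene; among the serpins only Serpinb9b had more than 1. A pair of probe sets that name Serpinb6a or Serpinb2 together with a second gene were left out. The second gene named with Serpinb2 is Serpinb10, itself a serpin.

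An inhibitory serpin works as a suicide substrate: a protease cleaves its exposed reactive centre loop, and the refolding serpin traps the protease in an inactive complex. Clade a serpins are mostly secreted and many come from the liver, among them the alpha-1-antitrypsins and the carriers of thyroxine and corticosteroids. Clade b serpins lack a classical secretion signal, stay largely inside cells, and include skin and squamous epithelial proteins and the inhibitors that protect cells from their own granule proteases. Medullary thymic epithelial cells (mTECs) express many genes of peripheral tissues, serpins among them, and so display their products to developing T cells. Aire is the transcriptional regulator best known for this expression, and Brg1, encoded by Smarca4, is a motor subunit of SWI/SNF chromatin remodellers.

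RNA of thymic mTECs from C57BL/6 mice aged 4 weeks was hybridised to 12 Affymetrix mouse gene arrays. The sort kept live (DAPI-negative), non-haematopoietic (CD45-negative) cells that were positive for Epcam and UEA and low in Ly51. Cells high (mTEChi) and low (mTEClo) in MHC class II were taken from Aire+/+, Aire-/-, Brg1+/+ and Brg1-/- mice, with 2 arrays, numbered 1 and 2, for each mTEChi genotype and 1 array, numbered 1, for each mTEClo genotype. No treatment is named in the labels, and what drives the deletion in either line, whether animals were pooled and whether replicates are separate animals are not given in the sources used here. The p-values therefore measure only how far these samples vary, and that spread may be technical.

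The epithelial gene Epcam read 8.41 to 9.29 (log2 intensity) on the 12 arrays, and the mean of 9 mTEC maturation genes was 8.61 to 9.38 in mTEChi and 7.36 to 7.58 in mTEClo. The mean of 12 thymocyte genes was 6.67 on the Brg1-/- mTEChi array numbered 2 and 5.45 to 6.20 on the other mTEChi arrays. In mTEChi the Aire probe set gave 9.01 and 9.73 on the arrays labelled Aire-/-, above the 8.04 and 8.80 of Aire+/+. Smarca4 gave 5.88 and 5.44 in Brg1-/- mTEChi, below the 6.13 and 6.89 of Brg1+/+. Whether these probe sets lie inside the deleted sequence is unknown, so they check no genotype label. In sorted bulk samples a lower signal from fewer cells that express a gene and from less RNA per cell cannot be told apart.

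The serpins sit in gene clusters. The RefSeq table of GRCm38.p6 held all 54 genes. It held 69 genes whose symbol fits the rule, 63 of them protein-coding, so the 54 are not the whole family. There 19 of the 20 clade a genes lie on chromosome 12 and Serpina7 lies on the X chromosome. Of the clade b genes, 10 lie on chromosome 1 and 15 on chromosome 13. RefSeq promoter windows of 300 bases were at hand for 47 of the 54 genes. Stretches of 120 bases, 100 before and 20 from the annotated start onward, are shown for genes on which the results below turn. Capitals mark TATAAA, the core letters of a TATA box, and GTTAAT, the first letters of the site of the liver factor HNF1, each searched on both strands. The first set holds genes compared between mTEChi and mTEClo.
Serpinb12, chr1:106934349-106934468, plus strand: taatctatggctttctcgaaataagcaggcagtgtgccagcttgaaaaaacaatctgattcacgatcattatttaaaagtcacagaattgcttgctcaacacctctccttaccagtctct
Serpina7, chrX:139085200-139085319, minus strand: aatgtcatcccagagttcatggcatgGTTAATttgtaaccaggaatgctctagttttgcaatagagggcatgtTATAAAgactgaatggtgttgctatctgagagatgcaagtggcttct
Serpinb9d, chr13:33192855-33192974, plus strand: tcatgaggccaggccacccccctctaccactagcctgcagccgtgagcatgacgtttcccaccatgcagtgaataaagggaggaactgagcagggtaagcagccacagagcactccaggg
Serpinb9g, chr13:33484690-33484809, plus strand: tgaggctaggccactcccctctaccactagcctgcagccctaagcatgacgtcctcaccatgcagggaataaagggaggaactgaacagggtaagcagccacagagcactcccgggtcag
The next set holds 3 squamous serpins of chromosome 1 and 3 alpha-1-antitrypsins of chromosome 12, genes compared in the Aire line.
Serpinb3a, chr1:107052284-107052403, minus strand: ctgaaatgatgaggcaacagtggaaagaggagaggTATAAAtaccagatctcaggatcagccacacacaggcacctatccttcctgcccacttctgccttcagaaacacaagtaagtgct
Serpinb3c, chr1:107278352-107278471, minus strand: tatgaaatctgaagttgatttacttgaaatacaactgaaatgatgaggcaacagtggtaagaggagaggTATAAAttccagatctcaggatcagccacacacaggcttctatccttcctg
Serpinb3d, chr1:107083461-107083580, minus strand: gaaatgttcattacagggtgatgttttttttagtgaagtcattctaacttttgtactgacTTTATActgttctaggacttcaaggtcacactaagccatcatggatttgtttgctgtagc
Serpina1a, chr12:103863600-103863719, minus strand: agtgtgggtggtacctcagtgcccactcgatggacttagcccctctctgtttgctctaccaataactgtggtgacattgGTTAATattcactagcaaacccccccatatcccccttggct
Serpina1c, chr12:103904931-103905050, minus strand: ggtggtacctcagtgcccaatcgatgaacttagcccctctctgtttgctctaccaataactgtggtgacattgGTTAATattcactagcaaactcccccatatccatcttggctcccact
Serpina1e, chr12:103956878-103956997, minus strand: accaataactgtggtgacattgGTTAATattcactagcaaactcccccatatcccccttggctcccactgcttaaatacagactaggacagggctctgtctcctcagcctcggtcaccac
Over whole windows, those of Serpinb9d and Serpinb9g were 89.2% identical, those of Serpinb3a and Serpinb3c 74.6%, and that of Serpinb3d 46.5% and 46.7% identical to these. The 20 bases of Serpinb3d from its annotated start onward begin with atg, which may be a start of coding sequence. Its window may therefore not be a promoter, and its identities and marked letters may not describe one. The Serpina1a to Serpina1d windows were 85.2% to 91.4% identical to each other, and that of Serpina1e was 63.3% to 69.3% identical to these. The Serpina1e start is annotated further along the shared sequence, so the identity depends on the start used. Each of the 5 windows from Serpina1a to Serpina1e held GTTAAT. Serpina7 held both motifs. TATAAA was found in 15 of 55 serpin windows (27.3%) against 13.6% of all 32851 promoter windows of the table, and GTTAAT in 10 of 55 (18.2%) against 7.1%. Near-identical genes give several of these windows, so they are not independent, and a match of letters is not a measured binding site. Near-identical genes can also share array signal: probe sequences were not analysed here, so members of the Serpina1, Serpina3, Serpinb3, Serpinb6 and Serpinb9 groups are uncertain as separate readings.

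The first comparison asked which serpins differ between mature mTEChi and mTEClo in wild-type mice. Serpinb12, an epithelial clade b inhibitor, was 11.7-fold higher in mTEChi, Serpina7, the thyroxine-binding globulin, 3.8-fold higher, and Serpinb9g, a relative of the granzyme B inhibitor Serpinb9, 4.38-fold higher. These 3 of 54 serpins passed limma's test (Benjamini-Hochberg adjusted p under 0.05 over all genes) as higher and 0 as lower, where 1.93% of all genes passed as higher and 0.632% as lower. The median difference of the 54 serpins was 0.28 on the log2 scale, with 37 above 0, beside a median of -0.10 over all genes.

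Serpinb12 read 8.59 and 8.50 (log2 intensity) in Aire+/+ mTEChi and 8.22 and 8.47 in Brg1+/+ mTEChi, against 5.70 and 4.10 in Aire+/+ and Brg1+/+ mTEClo. The knockout arrays followed their fraction: 8.63 and 8.26 on the mTEChi arrays labelled Aire-/-, 8.23 and 8.05 in Brg1-/- mTEChi, and 4.35 and 5.05 in the corresponding mTEClo. Every one of the 8 mTEChi arrays lay above every mTEClo array by over 2 log2 units, and the mTEChi arrays lay closer to each other than the mTEClo arrays did. The wild-type difference was 3.54 (SE 0.218, adjusted p = 0.00102, limma, 4 arrays against 2). Within the arrays numbered 1 alone it was 2.89 in the Aire line and 4.12 in the Brg1 line.

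Serpina7, a hormone carrier without inhibitory function, read 8.91 and 8.59 in Aire+/+ and 8.71 and 8.51 in Brg1+/+ mTEChi, against 7.31 and 6.20 in Aire+/+ and Brg1+/+ mTEClo. The wild-type groups did not overlap, and the difference was 1.93 (SE 0.243, adjusted p = 0.0105, limma). Brg1-/- mTEChi, at 7.81 and 7.26, lay below both wild-type mTEChi groups, with its lower array just under the Aire+/+ mTEClo array. The 2 mTEClo knockout arrays read 6.92 (labelled Aire-/-) and 6.44 (Brg1-/-).

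Serpinb9g read 5.08 and 5.78 in Aire+/+ and 5.99 and 5.19 in Brg1+/+ mTEChi, against 3.21 and 3.55 in the wild-type mTEClo arrays. The difference was 2.13 (SE 0.396, adjusted p = 0.039, limma), and the groups did not overlap. This call was lost when any of 5 single arrays was left out, with adjusted p = 0.0601 and 0.105 without Aire+/+ mTEChi 1 and 2, 0.0821 without Brg1+/+ mTEChi 1, and 0.0729 without either Brg1-/- mTEChi array. Serpinb12 and Serpina7 passed in each of the 8 fits that left out 1 mTEChi array.

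**Figure D1:**
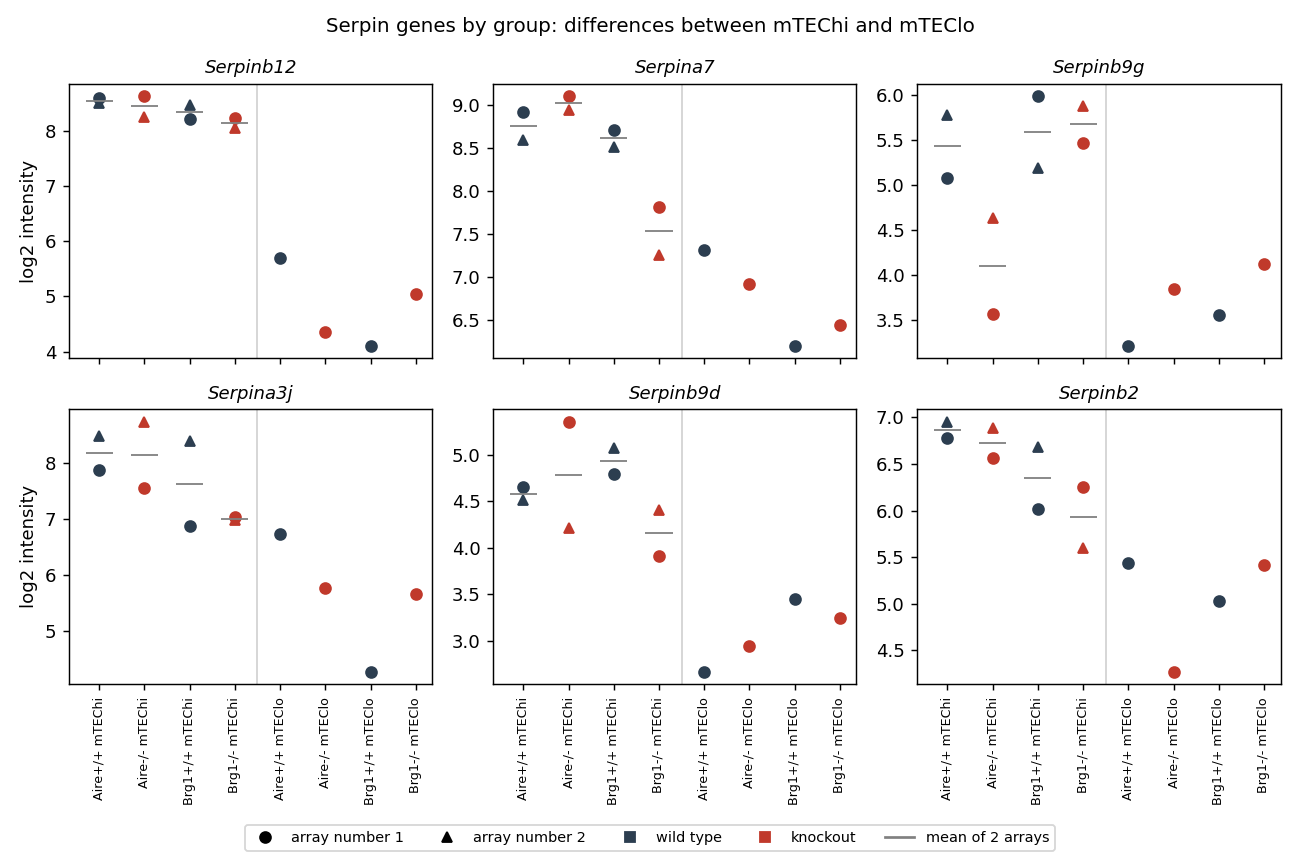
Log2 intensity (y axis) of 6 serpin genes in the 8 groups (x axis), with circles for arrays numbered 1, triangles for arrays numbered 2 and bars for means of 2 arrays. Serpinb12 sits between 8.05 and 8.63 in mTEChi and between 4.10 and 5.70 in mTEClo, and Serpina7 is lower in Brg1-/- than in Brg1+/+ mTEChi.

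A further group of serpins had large differences that did not pass. Serpina3j, of the antichymotrypsin group, read 7.88 and 8.49 in Aire+/+ and 6.87 and 8.39 in Brg1+/+ mTEChi, against 6.73 and 4.26 in wild-type mTEClo. Its difference was 2.41 (SE 0.49, adjusted p = 0.0531, limma), and without Brg1+/+ mTEChi 1 it was 2.79 and passed. Serpinb9d differed by 1.70 (SE 0.344, adjusted p = 0.0527), from 4.51 to 5.07 in wild-type mTEChi against 2.67 and 3.45 in mTEClo. Its promoter window, shown above, is similar to that of Serpinb9g, and a link with expression was not tested. Both had all wild-type mTEChi arrays above both mTEClo arrays. In the Aire contrast in mTEChi Serpinb9d differed by 0.20 and Serpinb9g by -1.33, and in the Brg1 contrast by -0.77 and 0.09. Serpinb2, the plasminogen activator inhibitor of macrophages and skin, differed by 1.37 (SE 0.292, adjusted p = 0.0629). The left-out probe set that names Serpinb10 and Serpinb2 overlapped, with 4.63 to 7.11 in wild-type mTEChi against 5.77 and 5.05 in mTEClo. Serpinb3a, a mouse counterpart of the squamous cell carcinoma antigens, differed by 2.33 (SE 0.526, adjusted p = 0.0775), with 4.76 to 6.03 in wild-type mTEChi against 3.35 and 2.65.

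Arrays with the same number deviated together across the groups, and in this comparison every mTEClo array is numbered 1. A fit with the array number as a block leaves fewer residual degrees of freedom than the fit without it. With the array number within each line as a block, limma called 13 of 54 serpins higher and 0 lower, where 4.43% of all genes were called higher and 2.49% lower. The 13 included the 3 named first. Serpinb3a differed by 2.87 in that fit (adjusted p = 0.000624), Serpinb3c by 2.21 (adjusted p = 0.00114), Serpinb9d by 1.76 (adjusted p = 0.00773) and Serpina3j by 2.00 (adjusted p = 0.0157). The others were the alpha-1-antitrypsins Serpina1c (1.02) and Serpina1e (0.96), the adipokine vaspin gene Serpina12 (1.02), Serpinb2 (1.31), Serpinb6e (0.93) and Serpine3 (0.92), with adjusted p between 0.0253 and 0.0469. A block common to both lines called 11 of the 13, beside 4.81% of all genes, and lost Serpina1c (adjusted p = 0.105) and Serpina1e (adjusted p = 0.0841). For Serpinb6e the unblocked difference was 1.76 (SE 0.774, adjusted p = 0.406), and within the arrays numbered 1 it was 0.59 and 1.24.

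Without a test, 19 of 54 serpins had all 4 wild-type mTEChi arrays above both wild-type mTEClo arrays, where 11.4% of all genes did, and 7 had them below, where 17.7% did. Over all genotypes, 9 serpins had all 8 mTEChi arrays above all 4 mTEClo arrays (3.63% of all genes) and 0 had them below (5.58%). The 9 were Serpina3j, Serpina9, Serpina12, Serpinb1a, Serpinb2, Serpinb6e, Serpinb9d, Serpinb12 and Serpinc1, the antithrombin gene. Serpinb1a, an inhibitor of neutrophil elastase and cathepsin G, read 11.15 to 12.54 in mTEChi and 10.80 to 11.14 in mTEClo, so its groups were separated by a single hundredth. Serpinc1 read 5.10 to 6.88 against 4.59 to 4.80, with a wild-type difference of 1.22 (SE 0.338, adjusted p = 0.149).

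Among members with lower values in mTEChi, Serpinb9e had the largest difference, -1.85 (SE 0.776, adjusted p = 0.374), with 3.67 to 5.76 in wild-type mTEChi and 7.51 and 6.44 in mTEClo. Serpinb11 differed by -1.20 (adjusted p = 0.478) and Serpinb5, the maspin gene of mammary and squamous epithelium, by -0.82 (SE 0.248, adjusted p = 0.186). Serpinh1, the collagen chaperone gene, differed by -0.69 (SE 0.241, adjusted p = 0.273) and read 6.64 in Brg1+/+ mTEClo against 5.17 to 5.96 on the other 11 arrays. The mean of 12 fibroblast and endothelial genes was 6.30 and 6.39 in wild-type mTEClo and 5.74 to 5.87 in wild-type mTEChi, and its part in these differences was not tested. The mean of 9 liver genes was 6.94 to 7.34 in wild-type mTEChi and 5.85 and 6.08 in mTEClo, higher together with the clade a genes named above, and its part was not tested either.

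Members of clades c to i differed by -0.69 to 1.22, and without the block none passed. Serpine3 differed by 1.16 (adjusted p = 0.109) and was the 1 member of these clades that passed with the block (adjusted p = 0.0253, limma), Serpini1, the neuroserpin gene, by 0.87 (adjusted p = 0.362), and Serpind1, the heparin cofactor gene, by 0.65 (adjusted p = 0.582). Serping1, the C1 inhibitor gene, differed by 0.07, Serpinf1 and Serpinf2, which encode pigment epithelium-derived factor and antiplasmin, by -0.29 and -0.27, and Serpini2 by 0.20. Clade a ran from -0.67 to 2.41 with a median of 0.15 and clade b from -1.85 to 3.54 with a median of 0.43, so both clades spread widely around small medians.

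**Figure D2:**
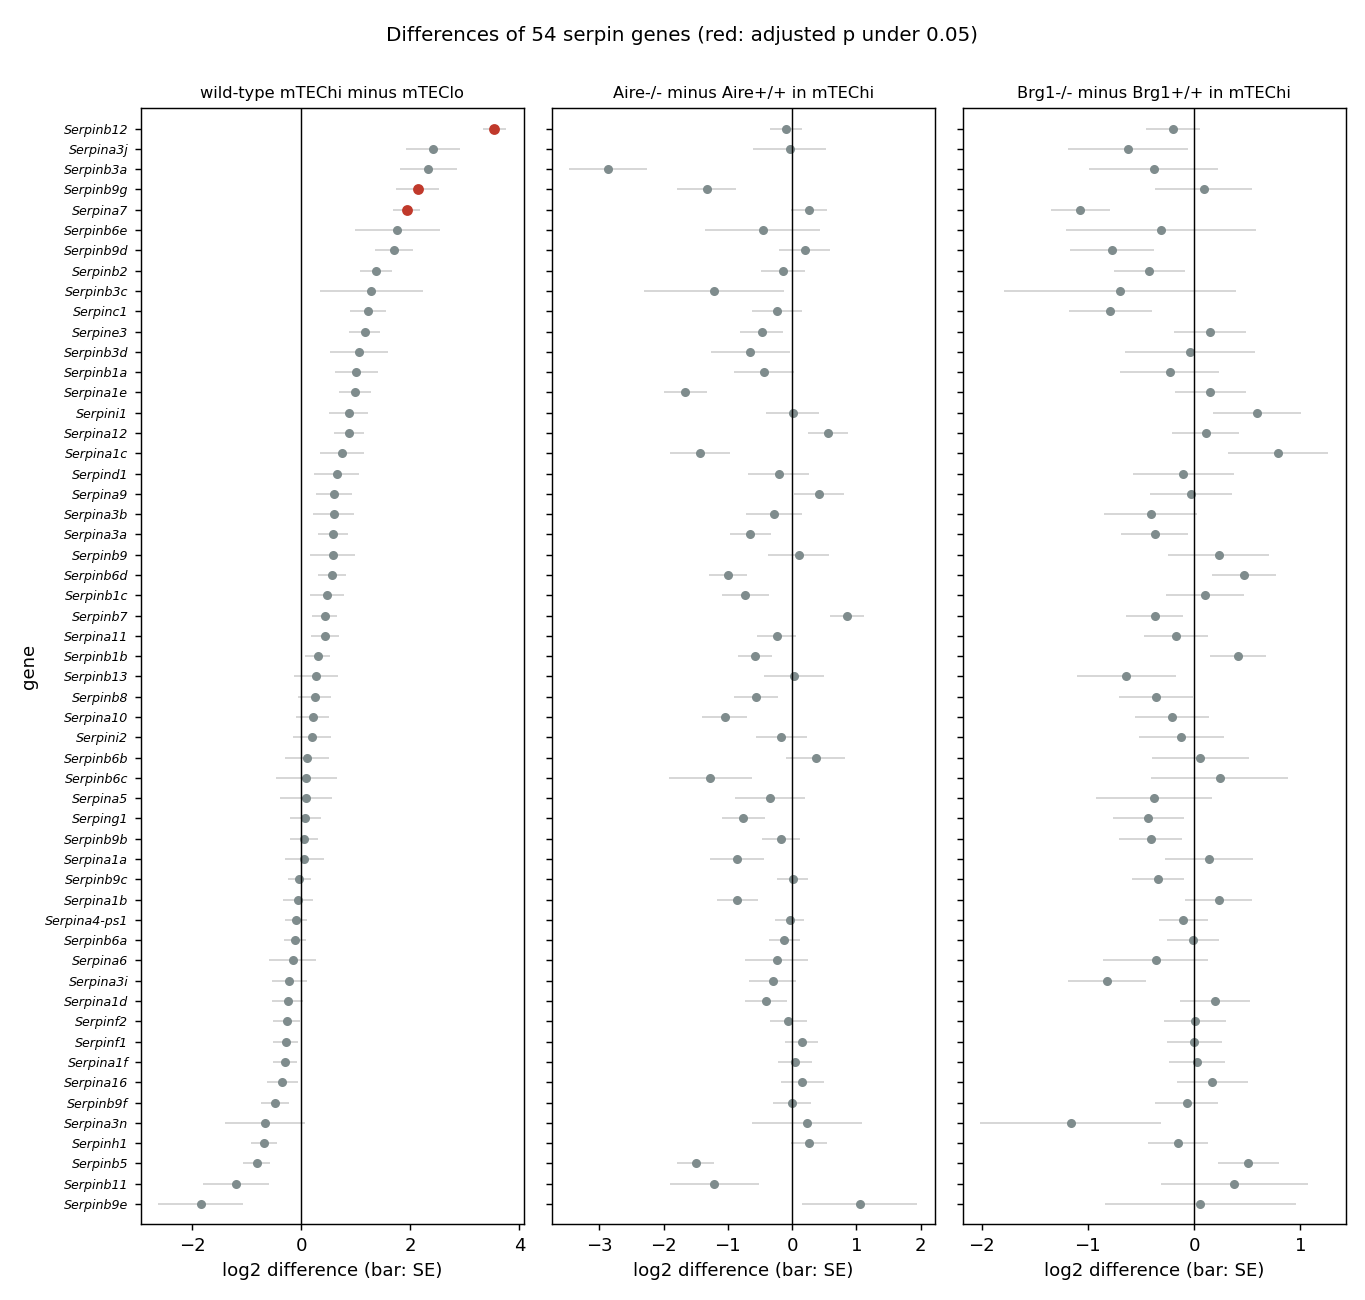
Log2 difference (x axis) with its SE (bars) for each of the 54 serpin genes (y axis) in wild-type mTEChi minus mTEClo, in the Aire contrast and in the Brg1 contrast, in limma without the array number as a block. The 3 red points, Serpinb12, Serpina7 and Serpinb9g, passed at an adjusted p under 0.05, and 0 points passed in the other panels.

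The second comparison asked which serpins in mTEChi differ without Aire. On the mTEChi arrays labelled Aire-/-, Serpinb3a read 7.26-fold lower than in Aire+/+, the alpha-1-antitrypsins Serpina1e and Serpina1c 3.16-fold and 2.69-fold lower, and maspin, Serpinb5, 2.83-fold lower. In limma without the array number, 0 of 54 serpins passed, where 0.772% of all genes passed as lower and 0.0226% as higher. At an unadjusted p under 0.05 there were 8 serpins lower and 1 higher, beside 3.94% and 1.52% of all genes. With the array number within each line as a block, 5 serpins were called lower and 0 higher, beside 2.1% and 0.298% of all genes: Serpinb3a, Serpina1e, Serpinb5, Serpinb3c and Serpina1c. A block common to both lines called 3 of them, Serpinb3a, Serpina1e and Serpinb5, beside 2.18% of all genes. The median difference of the 54 serpins was -0.24, with 37 below 0, beside 0.06 over all genes.

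Serpinb3a gave 6.03 and 5.04 in wild-type mTEChi of this line and 3.39 and 1.96 on the arrays labelled Aire-/-. The groups did not overlap, and the array numbered 2 was the lower in each, so the difference was -2.64 within number 1 and -3.08 within number 2. Without the block it was -2.86 (SE 0.607, adjusted p = 0.134, limma, 2 arrays against 2), and with it the adjusted p was 0.000785 (SE 0.217). In mTEClo it read 3.35 in Aire+/+ and 2.59 on the array labelled Aire-/-, so the knockout mTEChi values lay in or below the range of the 4 mTEClo arrays, 2.59 to 4.51.

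The related Serpinb3c read 4.06 and 2.91 in Aire+/+ and 2.67 and 1.88 in the knockout mTEChi arrays. Here arrays of different number differed nearly as much as the genotypes. The unblocked difference was -1.21 (SE 1.09, adjusted p = 1), and with the block it kept its size at an adjusted p of 0.0314. Serpinb3d read 4.23 and 5.60 against 3.69 and 4.85, a difference of -0.65 (adjusted p = 1) with overlapping groups. In Serpinb3d the array numbered 2 was the higher in every mTEChi genotype, the opposite of Serpinb3a and Serpinb3c.

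Among the alpha-1-antitrypsins, inhibitors of neutrophil elastase made chiefly by liver, Serpina1e read 6.10 and 6.71 in Aire+/+ and 4.59 and 4.90 on the knockout mTEChi arrays. Its difference was -1.66 (SE 0.334, adjusted p = 0.109), and 0.0126 was the adjusted p with the block. In mTEClo the values ran the other way, 4.95 in Aire+/+ and 5.83 on the array labelled Aire-/- (0.88, SE 0.473, adjusted p = 1, limma). Serpina1c read 5.14 and 5.31 against 3.94 and 3.65, a difference of -1.43 (SE 0.471, adjusted p = 0.544, and 0.0343 with the block), and in mTEClo 4.48 against 3.74. Serpina1a and Serpina1b differed by -0.86 and -0.85 without overlap and did not pass, while Serpina1d (-0.41) and Serpina1f (0.04) had overlapping arrays. Signals of these similar genes may be shared, so 4 non-overlapping members are not 4 separate observations. The mean of 9 liver genes was 7.18 and 7.34 in Aire+/+ mTEChi and 6.06 and 6.24 on the knockout arrays.

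Serpinb5 read 6.28 and 6.48 in Aire+/+ and 4.64 and 5.12 in the knockout mTEChi arrays, a difference of -1.50 (SE 0.286, adjusted p = 0.0928, and 0.0158 with the block). Its 4 mTEClo arrays read 6.85 to 7.55, so the Aire+/+ mTEChi values lay between the knockout and the mTEClo values. Serpinb7, the megsin gene of skin, had the largest positive difference among members with separate groups, 8.90 and 9.03 against 8.03 and 8.18 in Aire+/+, or 0.86 (SE 0.266, adjusted p = 0.467, and 0.124 with the block). The mean of 10 keratinocyte genes was 7.12 and 7.28 in Aire+/+ and 6.77 and 6.78 on the knockout arrays, lower with Serpinb3a and Serpinb5 and opposite to Serpinb7, and its part was not tested.

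**Figure D3:**
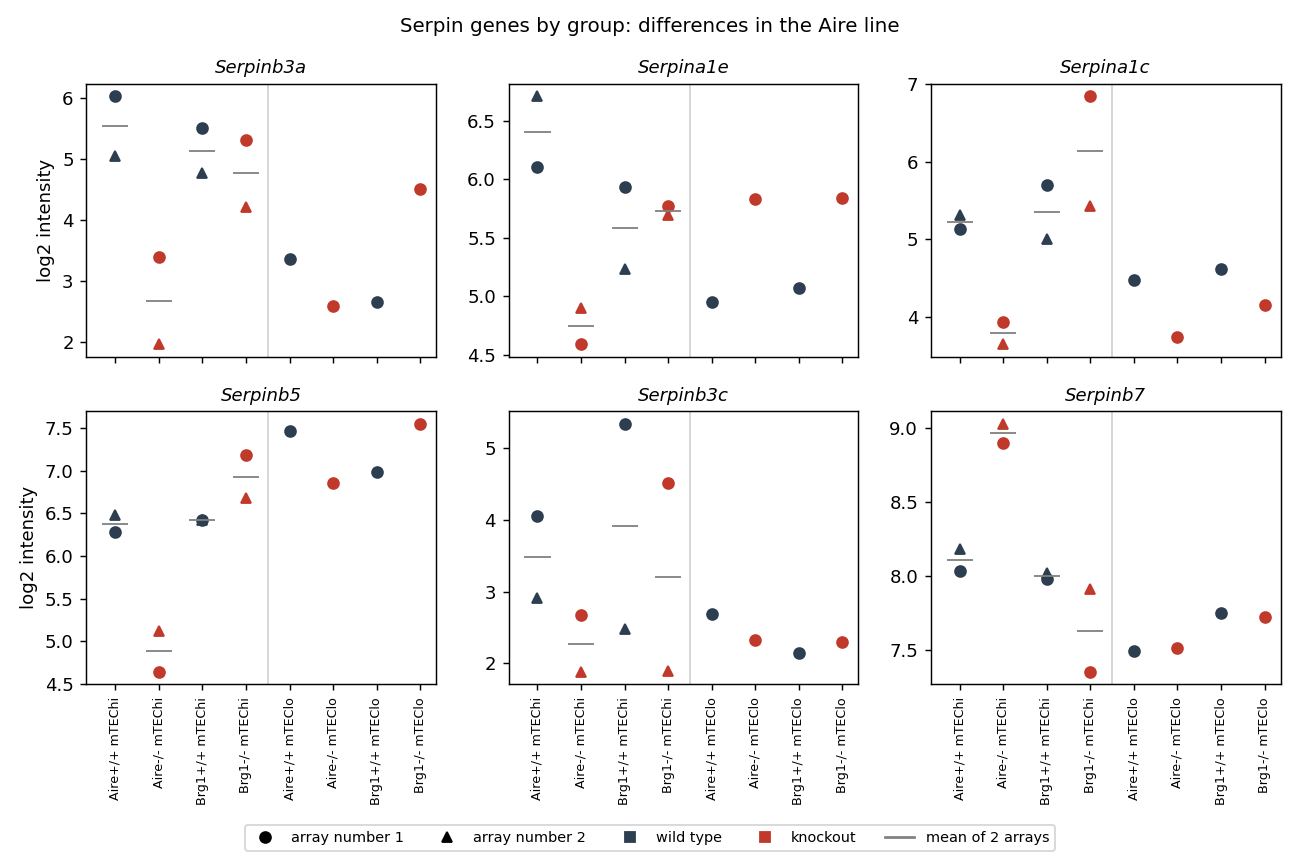
Log2 intensity (y axis) of 6 serpin genes in the 8 groups (x axis), with circles for arrays numbered 1, triangles for arrays numbered 2 and bars for means of 2 arrays. Serpinb3a lies at 3.39 and 1.96 on the mTEChi arrays labelled Aire-/- against 6.03 and 5.04 in Aire+/+, and Serpinb7 is higher there, at 8.90 and 9.03.

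Of other members with lower values and separate groups, Serpinb9g read 3.57 and 4.63 on the knockout arrays against 5.08 and 5.78, a difference of -1.33 (SE 0.458, adjusted p = 0.599). Serpina10, the inhibitor of factor X that acts with protein Z, differed by -1.05 (adjusted p = 0.547). Serpinb6d had means of 4.72 against 5.72 (adjusted p = 0.426), and Serping1 differed by -0.76 (adjusted p = 0.955) and Serpinb1b by -0.58 (adjusted p = 0.995). The 3 genes called higher in mTEChi differed here by 0.27 (Serpina7), -0.10 (Serpinb12) and -1.33 (Serpinb9g). The fraction comparison uses the same Aire+/+ mTEChi arrays. In all, 16 serpins lay lower without overlap, where 11.6% of all genes did, and 5 lay higher, where 15.9% did.

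Within array numbers, 30 of 54 serpins were lower in both pairs of arrays (55.6%, beside 23.1% of all genes), 7 were higher in both (13%, beside 36.7%) and 17 were mixed. Of the 54, 6 were at least 2-fold lower in both pairs (11.1%, beside 2.39% of all genes) and 0 at least 2-fold higher (0.316%). The 6 were Serpinb3a, Serpina1e, Serpina1c, Serpinb5, Serpinb9g and Serpinb3c. Serpinb9e stood apart, with 2.98 within number 1 and -0.87 within number 2.

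**Figure D4:**
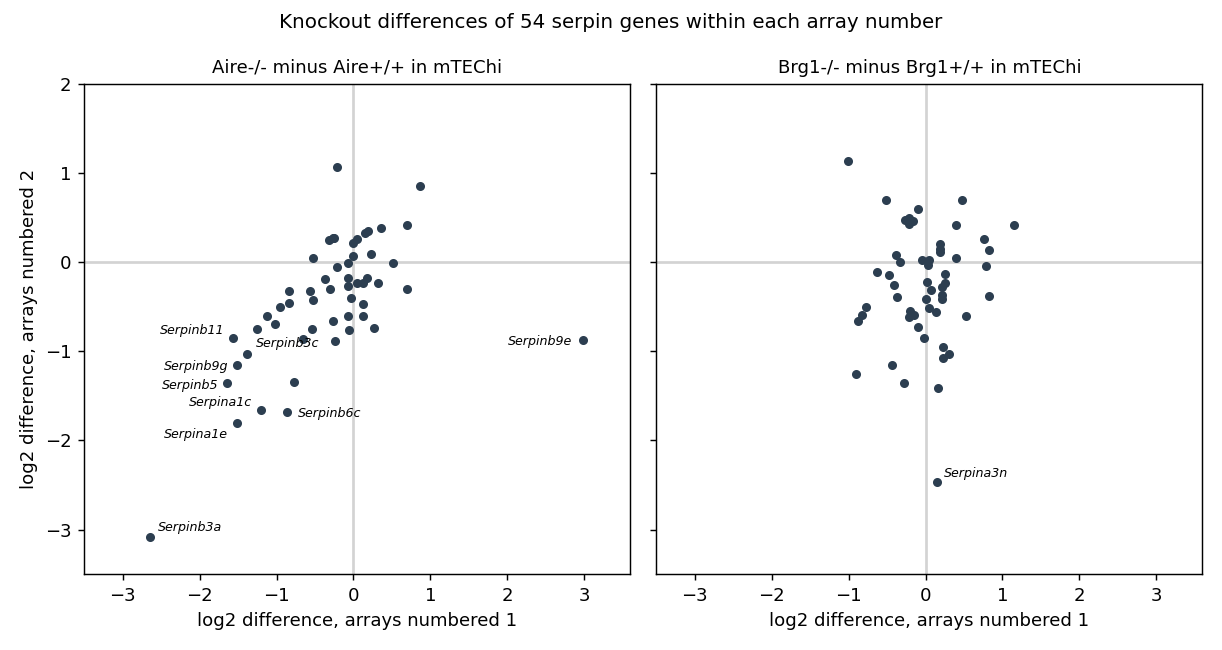
Knockout minus wild-type log2 difference in mTEChi within the arrays numbered 1 (x axis) and numbered 2 (y axis), 1 point for each of 54 serpin genes, in the Aire line (left) and the Brg1 line (right). In the Aire line 30 points lie below 0 on both axes (23.1% of all genes do), with Serpinb3a at -2.64 and -3.08, and in the Brg1 line 15 do (23.5% of all genes).

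The third comparison asked which serpins in mTEChi differ without Brg1. Serpina7 had the largest difference among members with separate groups, 2.11-fold lower in Brg1-/- mTEChi, and 0 of 54 serpins passed limma's test with or without the array number as a block, where 0% of all genes passed. At an unadjusted p under 0.05 there was 1 serpin lower, Serpina7, and 0 higher, beside 0.709% and 0.65% of all genes. Serpina7 was at 8.71 and 8.51 in Brg1+/+ and at 7.81 and 7.26 in Brg1-/- mTEChi arrays. The groups did not overlap, and the difference was -1.07 (SE 0.28, unadjusted p = 0.0057, adjusted p = 1, limma), or -0.90 and -1.25 within numbers 1 and 2. In mTEClo it read 6.20 in Brg1+/+ and 6.44 in Brg1-/-.

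Other members with lower values and separate groups were the antichymotrypsin relative Serpina3i (-0.82, SE 0.367), Serpinc1 (-0.79, SE 0.39) and Serpinb9d (-0.77, SE 0.397). The Serpina3i difference was -0.28 within number 1 and -1.36 within number 2, and ran from -1.35 to -0.28 when 1 mTEChi array was left out. That of Serpinc1 was -0.43 and -1.15 within the numbers. Those with higher values and separate groups included Serpini1 (0.59, SE 0.412), Serpinb5 (0.51, SE 0.286) and Serpinb6d (0.47, SE 0.298), all with adjusted p = 1. Within numbers 1 and 2 the Serpinb5 difference was 0.76 and 0.26 and that of Serpinb6d 0.82 and 0.13. Serpinc1 read 6.88 on the Brg1+/+ array numbered 2, the highest of its 12 readings, and 5.89, 5.46 and 5.73 on the other Brg1-line mTEChi arrays. The 5 Serpina3 genes measured, of 11 listed, had values below 0 (-1.16 to -0.37). All 6 Serpina1 genes had values above 0 (0.03 to 0.79). Near-identical genes make these counts dependent, and none of these genes passed. In all, 8 serpins lay lower without overlap (9.62% of all genes) and 5 higher (9.77%). The median was -0.10 beside 0.00 over all genes, and 15 serpins were lower in both pairs of arrays (27.8%, beside 23.5% of all genes), 10 higher (18.5%, beside 24.8%) and 29 mixed.

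Both knockout effects in mTEChi were then compared with each other; the lines share no array. Without the block 0 of 54 serpins passed, where 0.135% of all genes did. At an unadjusted p under 0.05, 7 serpins had the Brg1 effect above the Aire effect and 2 below it (2.67% and 1.01% of all genes). With the array number within each line as a block, 3 serpins passed, each with the Brg1 effect above the Aire effect, where 0.844% of all genes passed in that direction and 0.0632% in the other. Serpinb3a differed by 2.48 (SE 0.307, adjusted p = 0.0165), Serpina1c by 2.21 (SE 0.353, adjusted p = 0.0448) and Serpinb5 by 2.01 (SE 0.308, adjusted p = 0.0385). A block common to both lines called Serpinb3a and Serpinb5 (2 of 54, beside 0.925% of all genes) and lost Serpina1c (adjusted p = 0.099). In the Brg1 line Serpinb3a read 5.51 and 4.76 in wild-type and 5.31 and 4.21 in knockout mTEChi, so it differed by -0.38, beside -2.86 in the Aire line. Serpina1c read 5.70 and 5.01 in Brg1+/+ and 6.85 and 5.43 in Brg1-/- mTEChi, and Serpinb5 6.42 and 6.42 against 7.18 and 6.68.

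In mTEClo each genotype has 1 array, and limma assumed that it varies like the mTEChi groups. Among 54 serpins, 0 passed in either line with or without the block, and without it 0 of all genes did. At an unadjusted p under 0.05 4 serpins were lower and 0 higher in the Aire line (0.921% and 0.424% of all genes), and in the Brg1 line 1 was higher and 0 lower (0.903% and 0.822%). Serpinb12 read 5.70 in Aire+/+ and 4.35 on the array labelled Aire-/- (-1.35, SE 0.356), and 4.10 in Brg1+/+ and 5.05 in Brg1-/- (0.95, SE 0.356), each at adjusted p = 1. The wild-type arrays of the lines thus differed by at least as much as either knockout did from its own wild type. Serpina10 differed by -1.48 (SE 0.492) and Serpinb2 by -1.17 (SE 0.477) in the Aire line, and Serpinb3a by 1.86 (SE 0.859) in the Brg1 line. The difference of each knockout effect between mTEChi and mTEClo was tested too, and 0 of 54 serpins passed in either line with or without the block. Without the block 0 of all genes passed in either line. When each line had its own block, 0.271% of all genes passed as lower and 0.0135% as higher in the Aire line. In the Brg1 line 0% did. These serpin counts of 0 therefore do not set the serpins apart from other genes. At an unadjusted p under 0.05, 3 serpins were lower and 1 higher in the Aire line (1.83% and 0.636% of all genes) and 3 lower and 0 higher in the Brg1 line (0.7% and 0.636%).

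**Figure D5:**
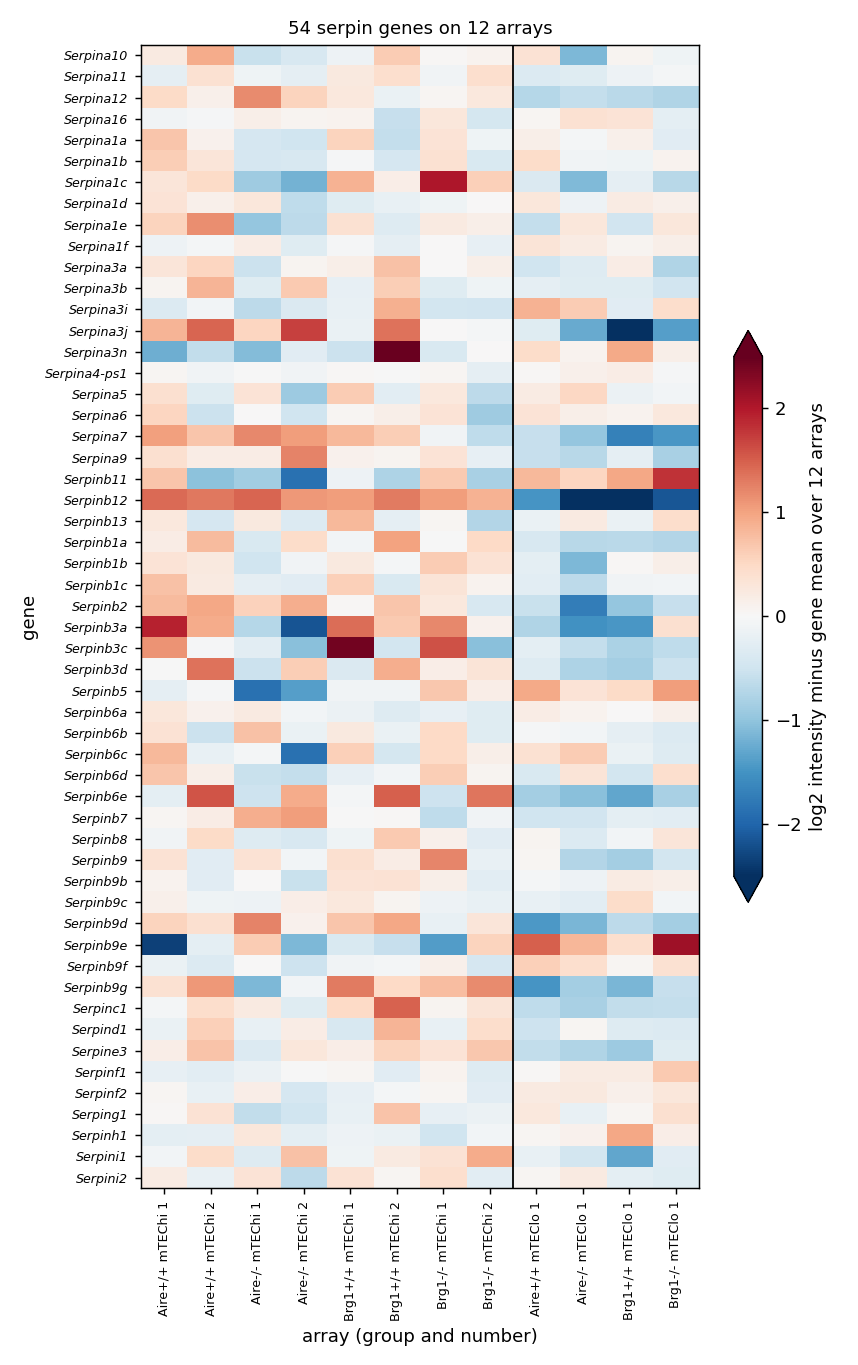
Log2 intensity minus the gene's mean over 12 arrays (colour) for 54 serpin genes (rows) on 12 arrays (columns), with mTEChi left and mTEClo right of the line and colours ending at 2.5 either way. Serpinb12 is high on all 8 mTEChi arrays and low on all 4 mTEClo arrays, and Serpinb3a and Serpinb5 are low on the mTEChi arrays labelled Aire-/-.

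Other genes of the pathway were read from lists of serpin target proteases, other protease inhibitors, and clotting and fibrinolysis genes. Of 45 target proteases measured, 4 fell on the mTEChi arrays labelled Aire-/- and 0 rose: the mast cell proteases Mcpt2 (-5.14, SE 0.277, adjusted p = 0.000595), Mcpt1 (-3.55) and Cma1 (-2.83), and the pancreatic elastase Cela3b (-3.19). Mcpt2 had a mean of 8.55 in Aire+/+ and 3.40 on the knockout arrays. Of 36 other inhibitors 1 fell, the secretory leukocyte inhibitor Slpi (-2.58, SE 0.418, adjusted p = 0.0468), and of 16 clotting genes 1 fell, fibrinogen Fgb (-3.20, SE 0.352, adjusted p = 0.00988). Over all genes 0.772% passed as lower. With the block the counts lower were 10, 7 and 2 of the 45, 36 and 16, beside 2.1% of all genes, and 0 were higher. The median differences were -0.27, -0.55 and -0.21 beside -0.24 for the serpins and 0.06 over all genes.

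In wild-type mTEChi against mTEClo, 6 of the 45 target proteases were higher and 0 lower, led by Mcpt2 (5.08, SE 0.24, adjusted p = 0.000993) and with the granzyme gene Gzmb (1.57, SE 0.298, adjusted p = 0.0411) and trypsinogen Prss1 (3.27, SE 0.643, adjusted p = 0.0465). Of the other inhibitors 3 were higher, the Kazal type genes Spink10 (2.51) and Spink11 (1.25) and the inter-alpha-trypsin inhibitor heavy chain Itih3 (1.22), and of the clotting genes 1, Fgb (2.45), where 1.93% of all genes passed as higher and 0.632% as lower. With the block these counts were 10, 11 and 2 higher, beside 4.43% of all genes, and 1, 0 and 2 lower, beside 2.49%; cathepsin L, Ctsl, was the protease called lower (-1.65, adjusted p = 0.003). Without Brg1, 0 genes of the 3 lists passed in mTEChi with or without the block. Mcpt2 was the 1 gene of these lists that passed in the test between the knockout effects without the block (4.71, SE 0.392, adjusted p = 0.0135), where 0.135% of all genes did, and with it 6, 1 and 1 did, beside 0.844% of all genes.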

How the data were processed

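The deposited table gives an intensity on a linear scale for 33732 probe sets on 12 arrays; per the submitters' processing notes the tools were Affymetrix Expression Console, RMA and Transcriptome Analysis Console (versions and roles not given). RMA commonly corrects background, equalizes quantiles and summarises probes. Intensities were turned into log2 without a pseudocount; no detection p was used, so background compresses differences of dim genes. Of the probe sets, 23491 had 1 gene symbol, 1811 several and 8430 none; 1337 further ones of a gene were set aside.

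Groups follow the labels. R 4.3.3 and limma 3.58.1 (lmFit, eBayes) fitted 8 group means to 12 arrays (4 residual degrees of freedom), two-sided, with Benjamini-Hochberg adjusted p under 0.05 over 22154 genes; SE is limma's moderated standard error. The labels number the arrays 1 and 2 without saying what the number stands for. Deviations of same-numbered mTEChi arrays from group means correlated in all 6 pairs of groups (r = 0.552 to 0.657 over all genes). Pairs across lines (0.605 to 0.647) correlated about as much as pairs within a line (0.657 and 0.552). The number was therefore treated as pairing, and values with the number as a block stand beside results it changes. The block fits leave fewer than 4 residual degrees of freedom, so their SEs rest on few data. Alternatives were centring, quantile normalization, a filter on dim genes, all probe sets, an intensity trend, fits to 1 line and leaving out each mTEChi array. The fit without a block was tried on simulated arrays with known changes and no shared array-number deviations, for the Aire contrast in mTEChi only. The block fits were not tried on simulated arrays. Array medians were 5.07 to 5.32; the number of arrays limits the precision.

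The serpin members and gene lists were chosen with earlier results of these data known. Members named with values are those that passed in any comparison and up to 6 rises and 6 falls with separate groups per comparison; other members and list genes were named after their values were seen. Promoter identity is over global alignments of 300-base windows.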

Additional observations from a re-analysis of the deposited data

Results flagged for a closer look

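In 5 serpins both knockout arrays lay on one side of both wild-type arrays in the Aire line and on the opposite side in the Brg1 line, in mTEChi. The difference between the knockout effects (Brg1 minus Aire, limma) was tested for each, and none passed without the array number as a block. The 5 were chosen on these same values, and the share of all genes separated in opposite directions was not counted. Whether 5 of 54 is unusual therefore cannot be told. Within 1 line, 11.6% of all genes lay lower and 15.9% higher without overlap in the Aire line. In the Brg1 line 9.62% lay lower and 9.77% higher. Serpinb5 had a difference of 2.01 (SE 0.405, adjusted p = 0.236), from -1.50 in the Aire line and 0.51 in the Brg1 line, and it passed with the array number as a block (adjusted p = 0.0385). Serpinb6d had 1.48 (SE 0.422, adjusted p = 0.656), from means 4.72 against 5.72 in the Aire line and 0.47 in the Brg1 line, and Serpinb1b had 0.99 (SE 0.372, adjusted p = 1), from -0.58 and 0.41. Serpina7 had -1.34 (SE 0.397, adjusted p = 0.7), from 0.27 and -1.07, and Serpinb7 had -1.23 (SE 0.377, adjusted p = 0.758), from 0.86 and -0.37. With the block the adjusted p of these 4 was 0.171, 0.318, 0.124 and 0.188.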

How the results depend on the processing

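Without a block, 3 serpins passed in wild-type mTEChi against mTEClo, and 0 in each other comparison. With the replicate block (number within each line, then common to both lines) the counts of serpins were 13 and 11 for the fraction, 5 and 3 for the Aire contrast and 3 and 2 for the difference of knockout effects; over all genes they were 1534 and 1757 against 567, 531 and 569 against 176, and 201 and 228 against 30. The block changed no other serpin call. Centring each array on its median gave 5 serpins for the fraction, with Serpinb3a and Serpinb9d added. Over all genes centring called 475 higher and 121 lower, against 427 and 140 without it. Quantile normalization gave 7 serpins, with Serpina3j and Serpinb2 too. A filter at a mean log2 intensity of 5 left out dim genes, among them Serpinb9g, Serpinb9d, Serpinb3a, Serpinb3c, Serpina1c, Serpinb6e and Serpine3. The filter gave 4 serpins for the fraction, with Serpina3j and Serpinb2. Serpinb3a, Serpinb3c and Serpina1c, called in the Aire contrast with the block, thus had no test under the filter. All probe sets and an intensity trend gave 3 each. Counts over all genes are not given here for quantile normalization, the filter, all probe sets and the trend. Leaving out 1 mTEChi array gave 2 to 4 for the fraction and 0 to 0 for the other 7 comparisons. Of 640 single-gene values under alternatives, 37 came to pass and 5 no longer passed, the last all Serpinb9g with an array left out. The other 598 did neither. They include the values from arrays numbered 1 alone, which had no test and moved by less than the SD of the wild-type mTEChi arrays. Genes left out by the filter gave no value there. No called value changed sign. Fits to the 6 arrays of 1 line gave 0 in the comparisons within that line. The fraction comparison and the difference of knockout effects need both lines and had no such fit. The arrays numbered 1 alone gave values without a test. mTEClo arrays have no replicate, so leaving one out gave no value.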

Other observations

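Some serpin readings stood apart on single arrays or by array number within genotypes. Serpinb6e read 4.17 to 4.64 on the 4 mTEChi arrays numbered 1 and 5.61 to 6.27 on the 4 numbered 2, in every genotype. Serpina3n, an acute-phase antichymotrypsin relative, read 9.44 on the Brg1+/+ mTEChi array numbered 2 and 5.74 to 7.91 on the other 11 arrays. Serpinb9e had 3.67 on the Aire+/+ mTEChi array numbered 1 and 8.13 in Brg1-/- mTEClo, a range of 4.46. The pseudogene Serpina4-ps1 had the smallest range of the 54 members, 0.41, from 4.57 to 4.98.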
